A study of Zea mays with 18 samples.

Results

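The microRNAs of maize roots were followed over the first 2 days of phosphate limitation, by setting the root library of day 1 and that of day 2 against the root library of day 0. These were 3 of the 18 small RNA libraries of the series. The unit is RPM, the reads of a miRNA per 1000000 clean reads of its library, and an entry is a miRNA name of the deposited table, either the guide strand or the star strand (the opposite strand of the hairpin, written with *). Entries with at least 10 RPM in at least 1 of the 3 root libraries were kept. Of 207 listed entries in 25 families, 184 had a root value on days 0 to 2 and 102 reached that level. Several entries of a family held identical values, and counted once they left 82 entries in 19 families, 63 guides and 19 stars. Entries of one family and strand with values within 10% of each other in the 3 root libraries were taken to share reads, so that the 82 formed 46 sets of shared reads. Sharing was thus inferred from similar values and not from sequences. The entries just inside the level reached 10.3 RPM (miR169i*), 10.7 RPM (miR160a*) and 11.6 RPM (miR396a*), and those just outside reached 8.44 RPM (miR169k*), 8.32 RPM (miR169a) and 7.61 RPM (miR160b*). Among the 82, 70 were at the level in all 3 libraries, while 7 were under it on day 0, 7 on day 1 and 2 on day 2.

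All plants were seedlings of the maize inbred line Q319. They were moved at an age of 4 days into a nutrient solution with sufficient phosphate (SP, 1000 µM KH2PO4), grown there for 4 days and then re-cultured, and part of them was moved to low phosphate (LP, 5 µM KH2PO4), in which potassium chloride took the place of the phosphate salt. The day 0 library is thus root before any phosphate limitation, day 1 and day 2 are root after 1 and 2 days in LP, and all 3 carry the label of the 3-leaf stage. The LP and SP libraries of day 8, whose values are given beside these, carry the label of the 4-leaf stage. Each library is 1 pool of 15 to 20 plants. There was 1 library per time point and no SP harvest on day 1 or day 2, so low phosphate, plant age and the move to a new solution cannot be told apart, and no test between days was possible. Ratios are given with their exact 95% counting interval, which covers counting error only, since reads without molecular identifiers are not independent molecules. In whole roots, fewer cells of a type and less miRNA per cell cannot be told apart.

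MicroRNAs are short RNAs that guide ARGONAUTE proteins to complementary transcripts, which are then cleaved or translated less. In plants short of phosphate, miR399 accumulates and lowers PHO2, a ubiquitin-conjugating enzyme that promotes the breakdown of phosphate transporters, and miR827 acts on transcripts of SPX-domain proteins that act in phosphate uptake or storage. Another set, miR397, miR398, miR408 and, in grasses, miR528, acts on transcripts of copper proteins such as laccases, plantacyanins and Cu/Zn superoxide dismutase, and is best known for accumulating when copper is scarce.

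Depths recovered from the value steps were 16297000, 21385000 and 20490000 clean reads on days 0, 1 and 2, so that 3 reads corresponded to 0.184, 0.140 and 0.146 RPM. Summed over 1 entry per set of shared reads, the listed miRNAs came to 272333, 262429 and 264473 RPM. The organ labels were checked with entries that were at least 32-fold higher in one organ in the SP libraries on both days. The 7 root-restricted entries, among them miR319a and miR167b*, all had root values, and none had a leaf value on days 0 to 2. Of 4 leaf-restricted entries, 3 had root values. miR156j stood at 80.4, 89.9 and 82.0 RPM in root and 1770 RPM in leaf on day 0. miR166j stood at 1.23, 0.0935 and 0.195 RPM in root (20, 2 and 4 reads) and at 236, 333 and 212 RPM in leaf. Both were thus far lower in root in all 3 libraries, with miR166j at its highest root value on day 0.

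Most root miRNAs stood within 1.5-fold of their day 0 level on each day, and those past 2-fold were all under 50 RPM on day 0. Abundant entries, such as miR166a, miR528a and miR528b, were among those past 1.5-fold on day 1. On day 1, 4 of the 82 entries were at least 2-fold higher than on day 0 (miR156b*, miR319a, miR167j* and miR827*), beside 3.97% of all 126 entries of at least 1 RPM. A further 5 were at least 2-fold lower (miR398a, miR398b, miR408, miR408b and miR160a*), beside 7.94% of the 126. On day 2, 3 of the 82 were at least 2-fold higher (miR827*, miR319a and miR827), beside 6.3% of 127 entries, and 1 was at least 2-fold lower (miR160a*), beside 3.94%. The shares of the 82 past 2-fold on day 1, 4.88% and 6.10%, were near those backgrounds, which include the 82 themselves. Within 1.5-fold of day 0 were 57 of the 82 on day 1 (69.5%) and 71 on day 2 (86.6%). From day 1 to day 2, 1 entry was at least 2-fold higher (miR827; background 4.03% of 124) and 1 at least 2-fold lower (miR156b*; background 2.42%). Both comparisons with day 0 share the day 0 library. Below day 0, by any margin, were 50 of the 82 on day 1 and 37 on day 2, against which the counts of each list below are to be read. The level bears on some calls: miR319a reached 10 RPM on day 1 alone, miR160a* on day 0 alone, miR827* on days 1 and 2 and miR398a and miR398b on days 0 and 2, so that their high libraries brought them into the set. The same holds for entries short of 2-fold: miR169i* reached the level on day 2 alone, and miR319b, miR156d* and miR156f* on days 1 and 2.

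**Figure D1:**
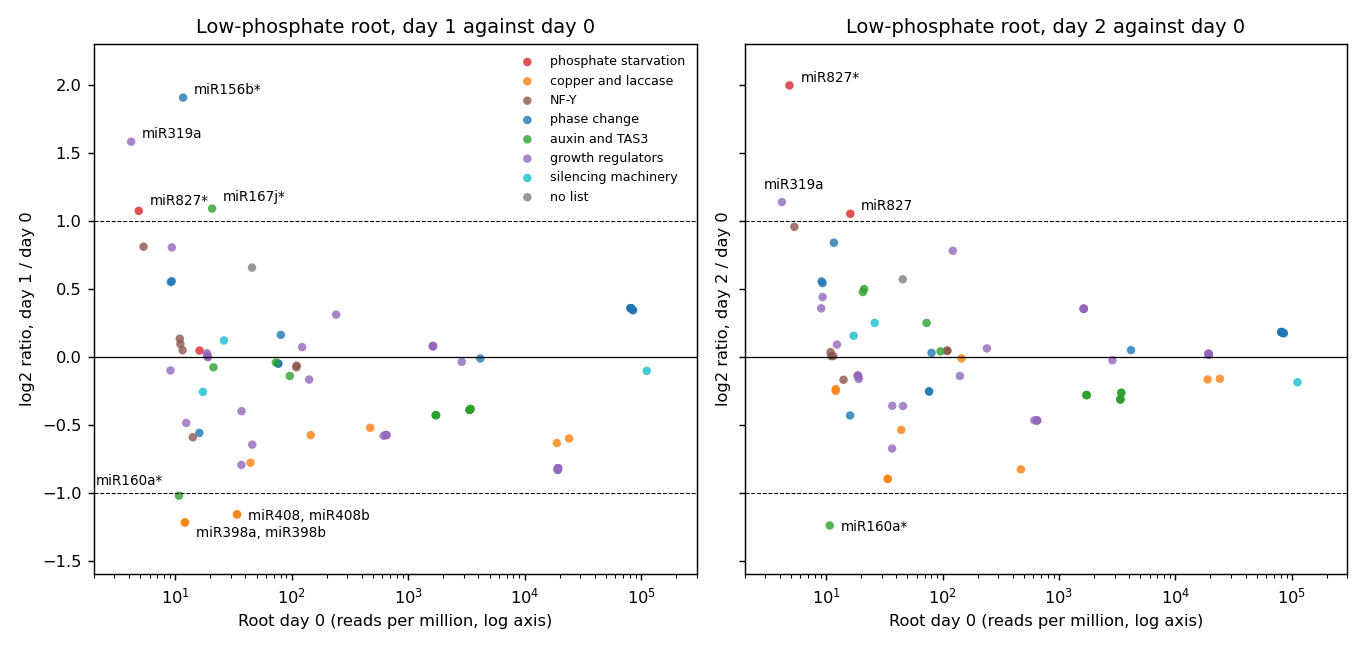
Log2 ratio of each of the 82 entries on day 1 (left) and day 2 (right) to day 0, against its day 0 level in RPM on a log axis, 1 library per day; colours mark the miRNA lists and dashed lines 2-fold. The 9 entries past 2-fold on day 1 and the 4 on day 2 are named, and all of them were under 50 RPM on day 0.

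The only replicated root libraries of the series, 2 each from SP on day 0 and day 8, show how far separate pools differed. Between replicates, 0 of 100 entries on day 0 and 0 of 98 on day 8 differed by 2-fold or more (0% of the entries compared), and 97% and 96.9% were within 1.5-fold. Their median absolute log2 difference was 0.19 and 0.15, and the widest were 0.74 and 0.64. The median absolute log2 ratio of the LP root was 0.39 on day 1 and 0.25 on day 2, both wider than that spread. The SP values come from another table, counted and scaled separately, so they describe a spread and give no test of the LP values. Across 3 other scalings of the libraries and a pseudocount of 1, 24 of the 82 entries changed the sign of their log2 ratio on day 1 (none above 0.12 in size) and 19 on day 2 (none above 0.09), whereas no entry past 2-fold did. Each scaling moves all log2 ratios of a comparison by the same amount. The day 1 median of -0.08 became -0.21, 0.06 or -0.03, so only entries near 0 could change sign.

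**Figure D2:**
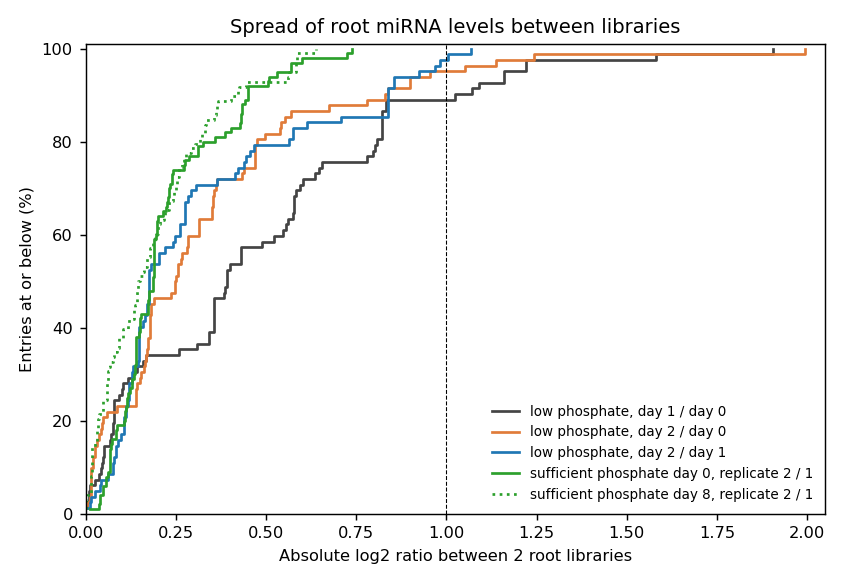
Cumulative share of entries (%) by absolute log2 ratio between a pair of root libraries: LP day 1 to day 0, day 2 to day 0 and day 2 to day 1 (n = 82), and SP replicate 2 to 1 on day 0 (n = 100) and day 8 (n = 98). Both SP curves end below the dashed 2-fold line, at 0.74 and 0.64, and the LP curve for day 1 to day 0 lies farthest to the right over most of its course.

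Of the phosphate miRNAs, miR827 and its star were the only entries at the level, 2 of 16 listed. The guide miR827 stood at 16.1 RPM on day 0, 16.6 RPM on day 1 and 33.4 RPM on day 2 (263, 356 and 685 reads). It was level on the first day, at a ratio of 1.03 (0.877 to 1.21), and 2.07-fold higher on the second (1.79 to 2.40; log2 1.05, or 0.96 when scaled to all listed miRNA reads). On days 4 and 8 it reached 61.0 and 648 RPM. The star strand miR827* stood at 4.85, 10.2 and 19.3 RPM (79 and 218 reads on days 0 and 1) and then at 37.1 and 275 RPM on days 4 and 8. It was higher already on day 1, 2.10-fold (1.62 to 2.76; log2 1.07, or 0.94 scaled to all listed miRNA reads or with a pseudocount of 1 RPM), and was 3.99-fold higher on day 2 (3.12 to 5.14; log2 2.00). Per 1000 guide reads there were 300.4 star reads on day 0, 612 on day 1 and 578 on day 2. In leaf, miR827 stood at 48.3, 42.7 and 58.2 RPM and miR827* at 23.4, 26.0 and 30.2 RPM over the same days, all within 1.5-fold of day 0.

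No miR399 entry reached 10 RPM on these days, and on day 0 the family had 3 reads or fewer per entry. miR399e, miR399i and miR399j, which held identical values on these days, stood at 0.184 RPM on day 0 (3 reads) and 2.00 RPM on day 2 (41 reads), a ratio of 10.9 (3.47 to 54.9). Their day 1 values repeat day 0 with no fold beside them and were treated as not measured, as were all 13 such cells of the family. On day 4 they stood at 5.03 RPM, and miR399e reached 30.8 RPM on day 8. miR399a, miR399c and miR399h had 0.123 RPM on day 0 (2 reads), and miR399b, miR399b*, miR399c*, miR399e*, miR399g, miR399g* and miR399j* had 0 reads, which allows up to 0.184 RPM each. For these 10 entries the day 2 cells are blank.

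**Figure D3:**
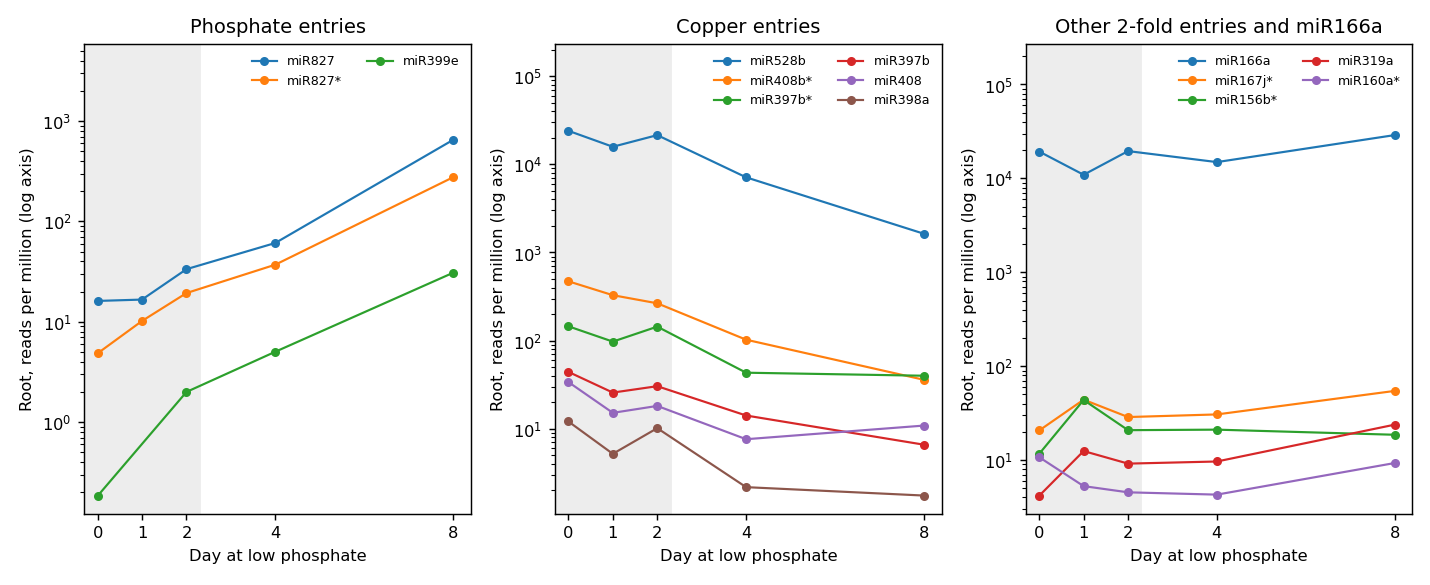
Root levels in RPM (log axis) by day at low phosphate, 1 library per day, for phosphate entries (left), copper entries (middle) and other entries past 2-fold with miR166a (right); the shaded band covers days 0 to 2 and miR399e has no day 1 value. miR827* goes from 4.85 to 19.3 RPM within the band, miR398a dips to 5.19 RPM on day 1 and returns to 10.2 RPM, and miR166a dips from 19320.2 to 10933 RPM and returns to 19534 RPM.

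All 9 copper entries at the level, of 14 listed and forming 7 sets of shared reads, were lower on day 1 than on day 0 under every scaling tried. Their median log2 ratio was -0.78, beside -0.08 over all 82 entries. At least 2-fold lower were 4 of the 9, beside 7.94% of all 126 entries of at least 1 RPM, a background that includes the copper entries themselves. Of these 4, miR398a and miR398b were 1 set of shared reads and miR408 and miR408b another. None of their counting intervals lay wholly beyond 2-fold. miR398a, a guide against Cu/Zn superoxide dismutase transcripts, stood at 12.1, 5.19 and 10.2 RPM on days 0, 1 and 2 (197, 111 and 208 reads), with ratios to day 0 of 0.429 (0.337 to 0.545) and 0.840 (0.688 to 1.03). miR398b held the same reads on days 0 and 1. miR408, whose known targets are plantacyanin and laccase transcripts, stood at 33.9, 15.2 and 18.2 RPM (552, 324 and 372 reads), 2.24-fold lower on day 1 (ratio 0.447, 0.389 to 0.514) and 1.87-fold lower on day 2 (ratio 0.536, 0.469 to 0.612). miR408b held the same values on these days. miR398 was thus past 2-fold on day 1 alone, and miR408 was near or past 2-fold on both days.

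The other copper entries stood nearer to day 0. miR528a, of a family that in maize acts on laccase transcripts, stood at 18900.2, 12166 and 16824 RPM (log2 -0.64 and -0.17), and miR528b at 24046, 15842 and 21476 RPM (log2 -0.60 and -0.16). miR397b, which acts on laccase transcripts, stood at 44.2, 25.7 and 30.4 RPM (log2 -0.78 and -0.54). At both miR397b and miR408b the star was the more abundant strand: miR397b* stood at 145, 97.4 and 144 RPM and miR408b* at 471, 328 and 265 RPM, with 13.9 star reads per guide read at miR408b on day 0, 21.6 on day 1 and 14.6 on day 2. On day 2, 9 of 9 were still below day 0, except that miR397b* (log2 -0.01) turned to above it under 2 of the other scalings, and the median was -0.25 with 0 past 2-fold, beside 0.02 over all 82. On day 8 they were lower still, with miR528a at 1115 RPM and miR398a at 1.75 RPM.

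All 9 copper entries were more abundant in leaf than in root on day 0, when leaf held 196721 RPM of miR528a, 90.0 RPM of miR398a and 6599 RPM of miR408b*. The leaf-restricted miR166j was also at its highest root value on day 0 (above), while leaf-restricted miR156j was not, and the part of leaf RNA in the lower day 1 values was not tested. In leaf the median log2 ratio of the copper entries was 0.23 on day 1 and 0.16 on day 2. Leaf miR408 stood at 68.2, 126 and 139 RPM, higher on both days.

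**Figure D4:**
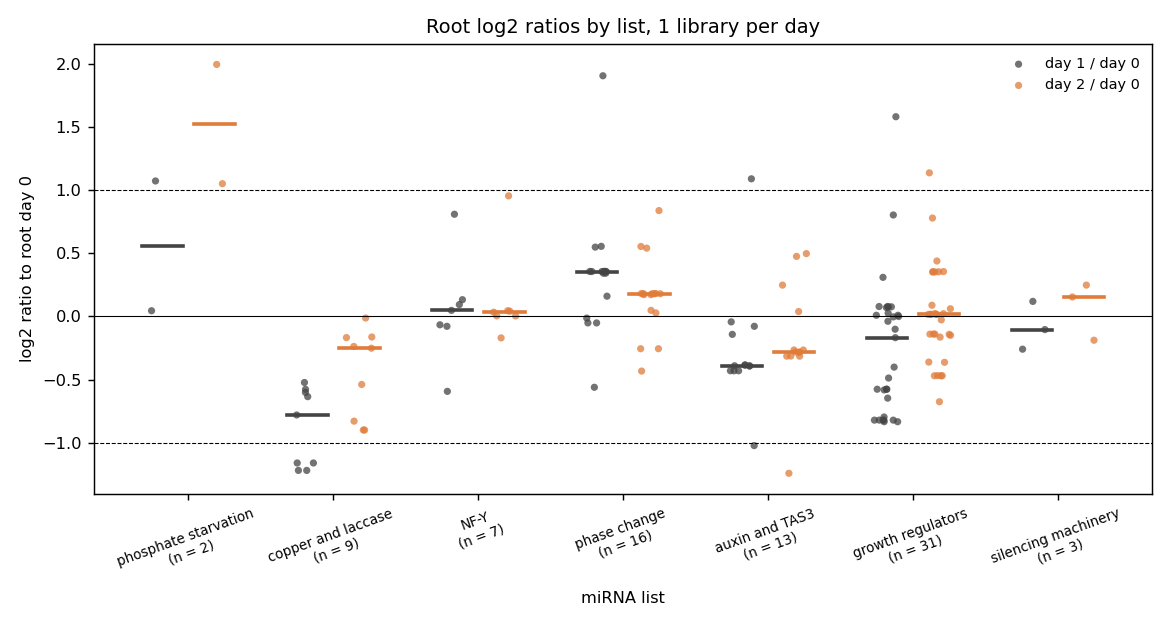
Log2 ratio to root day 0 by miRNA list, for day 1 (dark) and day 2 (orange), 1 library per day; points are entries with identical ones counted once, bars are medians and dashed lines 2-fold. The copper and laccase points all lie below 0 on both days (medians -0.78 and -0.25), although miR397b* on day 2 turns positive under 2 other scalings, whereas the NF-Y medians are 0.05 and 0.03, with both turning negative when scaled to all listed reads.

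The most abundant root miRNAs were miR168a, a guide against ARGONAUTE1 transcripts, and miR156, which acts on transcripts of SQUAMOSA promoter-binding-like factors that govern the juvenile-to-adult phase change. miR168a stood at 111740, 103929 and 98042 RPM (log2 -0.10 and -0.19, the first turning positive under median-ratio scaling). miR156a stood at 81825, 104690 and 92704 RPM (log2 0.36 and 0.18), and miR156b, miR156c, miR156d and miR156g, which were taken to share its reads, followed it. Among 10 miR156 guides (3 sets), 9 were above day 0 on day 1 and 10 on day 2, where miR156k on day 1 and miR156j and miR156k on day 2 changed side with the scaling, and 0 passed 2-fold. Leaf miR156a stood at 91598, 40900 and 61582 RPM on the same days, lower on both.

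The highest day 1 ratio among the 82 belonged to miR156b*, at 11.7, 43.7 and 20.8 RPM (190, 934 and 427 reads). It was 3.75-fold higher on day 1 (3.20 to 4.40; log2 1.91) and 1.79-fold higher on day 2, and stayed at 21.1 and 18.6 RPM on days 4 and 8. Per 1000 reads of miR156b there were 0.137, 0.405 and 0.217 star reads, so the star was a minute share of the hairpin's reads in each library. miR156d* stood at 9.33, 13.7 and 13.6 RPM and miR156f* at 9.14, 13.4 and 13.4 RPM, both above day 0 on both days, whereas miR156l*, at 16.1, 10.9 and 11.9 RPM, was below it on both days (log2 -0.56 and -0.43). Of the 16 phase change entries (7 sets), which include miR172 (against transcripts of APETALA2-like factors), 12 were above day 0 on day 1 (15 under 2 other scalings) and 13 on day 2 (11 when scaled to all listed reads), with medians of 0.36 and 0.18, but miR172a, at 76.6, 73.9 and 64.1 RPM, was below on both days (log2 -0.05, turning positive under median-ratio scaling and under scaling to 1 entry per read set, and -0.26).

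miR167, which acts on transcripts of activating auxin response factors, had 8 of 8 guides, in 2 sets of shared reads, below day 0 on both days under every scaling tried, with medians of -0.39 and -0.28 and 0 past 2-fold. miR167b, for example, stood at 3435, 2629 and 2856 RPM. Of the 3 miR167 stars, 1 was above day 0 on day 1 (3 under median-ratio scaling) and 3 on day 2. miR167j* stood at 20.7, 44.0 and 28.7 RPM (337, 941 and 589 reads), 2.13-fold higher on day 1 (1.88 to 2.42; log2 1.09, or 0.96 scaled to all listed reads) and 1.39-fold higher on day 2 (1.21 to 1.59). Per 1000 reads of miR167j there were 6.13, 17.1 and 10.6 star reads. miR167b* stood at 21.2, 20.1 and 30.0 RPM and miR167h* at 73.0, 70.8 and 86.6 RPM, both near day 0 on day 1 and above it on day 2. miR160a*, the star of a family that acts on transcripts of repressing auxin response factors, had the lowest day 2 ratio of the 82, at 10.7, 5.28 and 4.54 RPM (175, 113 and 93 reads). It was 2.03-fold lower on day 1 (ratio 0.492, 0.385 to 0.627; log2 -1.02, or -0.89 under median-ratio scaling) and 2.37-fold lower on day 2 (ratio 0.423, 0.325 to 0.547). Its guide miR160a was under the level, at 1.23, 1.17 and 1.12 RPM. The stars miR160b* and miR160g*, also under the level, both stood at 6.81, 5.33 and 7.61 RPM, and were not lower on day 2 (ratio 1.12, 0.871 to 1.44). Of the 13 auxin entries at the level (7 sets, of 36 entries listed), which include miR390, the trigger of the TAS3 small RNAs that act on auxin response factors, 12 were below day 0 on day 1 and 9 on day 2 (miR167b* and miR167h* changed side with the scaling on day 1, and miR390a on day 2), with medians of -0.39 and -0.28. The 8 miR167 guides were among those below on both days. Listed entries under the level lay on both sides of day 0 on day 1. The ratio was 1.35 (1.02 to 1.79) for miR393a, 1.65 (1.06 to 2.64) for miR393b and 1.34 (0.995 to 1.82) for miR393c, but 0.783 (0.597 to 1.03) for miR160b*.

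Among growth regulators, miR166 guides were mostly below day 0 on day 1 and miR319 guides above it. miR166, a guide against transcripts of class III HD-ZIP factors, which pattern the vascular tissue of the root, had 7 of 9 guides (3 sets) below day 0 on day 1, with miR166m changing side when scaled to all listed reads. These 7 were taken to share reads: miR166a stood at 19320.2, 10933 and 19534 RPM, 1.77-fold lower on day 1 (ratio 0.566, 0.563 to 0.569) and at a ratio of 1.01 on day 2. The dip was thus gone by day 2, when 9 of 9 were above day 0, 8 of them by so little that they lay below it when scaled to all listed reads. miR166m stood at 123, 129 and 210 RPM (log2 0.07 and 0.78), and its day 1 value shows no dip. The star miR166c* stood at 36.9, 21.2 and 23.1 RPM (log2 -0.80 and -0.68), lower on both days.

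miR319a, a guide against transcripts of TCP factors that control leaf and organ growth, held the same values as miR319c. It stood at 4.17, 12.5 and 9.18 RPM (68, 267 and 188 reads), 2.99-fold higher on day 1 (2.29 to 3.97) and 2.20-fold higher on day 2 (1.66 to 2.95; log2 1.14, or 0.98 with a pseudocount of 1 RPM). On days 4 and 8 it stood at 9.67 and 23.9 RPM. miR319b, at 9.33, 16.3 and 12.6 RPM, was also above day 0 on both days (log2 0.80 and 0.44). No miR319 entry had a leaf value on days 0 to 2.

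The remaining growth regulators stood nearer to day 0. miR164a, of a family that acts on NAC factor transcripts, stood at 648, 434 and 468 RPM (log2 -0.58 and -0.47). Between the SP root replicates, miR164a differed by log2 -0.07 on day 0 and by -0.58 on day 8, as much as its day 1 ratio. All 6 miR164 guides, in 3 sets, were below day 0 on both days, although miR164e, at 2878, 2802 and 2824 RPM, changed side with the scaling. miR159a, which acts on GAMYB-like transcripts, stood at 1632, 1721 and 2083 RPM (log2 0.08, turning negative when scaled to all listed reads, and 0.35). miR396c, of a family that acts on growth-regulating factor transcripts, stood at 141, 125 and 128 RPM, and of 5 guides of miR171, which acts on scarecrow-like transcripts, 0 were past 2-fold. Over all 31 growth regulator entries (15 sets) the medians were -0.17 and 0.02, with 11 above day 0 on day 1 and 17 on day 2, counts that the scaling changed.

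Of 7 entries of miR169, which acts on NF-YA transcription factor transcripts, 0 were past 2-fold on either day. The highest was miR169i*, at 5.34, 9.35 and 10.3 RPM (log2 0.81 and 0.95), whereas miR169c, at 109, 104 and 113 RPM, stayed level. The entry miR169i* came into the set through its day 2 library alone. miR1432, of a family that in rice acts on an acyl-CoA thioesterase transcript, stood at 45.5, 71.7 and 67.5 RPM, 1.57-fold (1.44 to 1.72) and 1.48-fold (1.36 to 1.62) higher. In leaf it stood at 58.4, 14.6 and 57.8 RPM, lowest on day 1, when the root value was highest. No entry of miR395, which acts on sulfate assimilation and transport transcripts, reached 10 RPM: miR395a stood at 1.84, 2.62 and 1.12 RPM.

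Strands and time courses were then compared over the whole set. At 16 hairpins both strands were at the level, and the star outnumbered the guide at 2 of them on day 0. The ratio of star to guide was at least 2-fold higher on day 1 at 3 hairpins, miR156b (2.96-fold), miR167j (2.79-fold) and miR827 (2.04-fold), and at 0 on day 2; it was at least 2-fold lower at 0 on either day. By a 1.5-fold step from one day to the next, 55 of the 82 entries (27 sets of shared reads) stood level across both steps. A lower step and then a level one was found for 9 entries (8 sets), among them miR408, miR397b and miR528a, and a lower step followed by a higher one for 9 entries in 2 sets, 7 of the 9 miR166 guides and both miR398 guides. Entries that were higher on day 1 and then level were miR319a, miR319b, miR169i* and miR1432, those higher on day 1 and then lower again were miR156b* and miR167j*, and miR827* alone was higher at each step. Of these, miR319a, miR319b, miR169i* and miR827* were under 10 RPM on day 0, so that their later libraries brought them into the set. Of the 77 entries with leaf values, 2 were at least 2-fold higher and 16 at least 2-fold lower in leaf on day 1 (backgrounds 1.82% and 19.1% of 110 entries), and 4 and 0 on day 2 (6.31% and 0.901% of 111). The difference between organs was not tested.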

How the data were processed

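Small RNA of root and leaf was sequenced as 50 nt HiSeq tags, which the authors cleaned of low-quality tags and contaminants, per the series' design text. The aligner, miRBase version and build were not given in the sources used here. Low-phosphate values the authors deposited as a signal: the count of a miRNA over the library's clean reads, scaled to 1000000 (RPM), with 0.01 for 0 reads. The deposited log2 folds of the authors were used only to find the 13 root day 1 cells with no fold, all equal to day 0, which were left out. For sufficient phosphate the authors deposited whole numbers, taken here as raw counts of each miRNA. For 2 of those root libraries the title and another label differ on the day, and the titles were followed.

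Clean reads per library were recovered from the steps of low values (up to 25 RPM): 50 to 60 such values per library, 100% whole within 0.03 reads. Ratios of RPM were formed with exact binomial intervals (Clopper-Pearson, 95%) and called at 2-fold, and the steps were tested on simulated data. Entries of a family with identical values were counted once, and entries within 10% of each other were taken as sharing reads. With 1 library per time point no p-value was computed.

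Named entries were all miR399 and miR827 entries, the 5 most abundant on day 0, the 10 highest and 10 lowest ratios of each day and the copper entries; other family examples were picked after their values were seen. Members and lists were chosen with earlier results of these data known. Alternatives were other scalings, a pseudocount, other levels and other folds. Python 3.11.15, numpy 2.4.6, pandas 2.3.3, scipy 1.17.1 and matplotlib 3.10.9 were used.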

Additional observations from a re-analysis of the deposited data

Results flagged for a closer look

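The root and leaf ratios of 4 entries lay in opposite directions on the same day, each past 1.5-fold. For miR1432 on day 1 the log2 ratio to day 0 was 0.65 in root and -2.00 in leaf, a difference of 2.66. For miR167j* on day 1 it was 1.09 in root and -1.38 in leaf, a difference of 2.47. For miR408 and for miR408b, which held the same values in root on these days, it was -1.16 in root and 0.88 in leaf on day 1, a difference of -2.04, and -0.90 and 1.03 on day 2, a difference of -1.93. With 1 library per organ and day these differences were not tested.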

How the results depend on the processing

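With 1 library per day, 2-fold calls rested on entries of low abundance, and the counting intervals leave out the spread between pools of plants. Of the 82 entries, those past 2-fold, written higher and lower, were 4 and 5 for day 1 to day 0, 3 and 1 for day 2 to day 0, and 1 and 1 for day 2 to day 1. With a level of 50 RPM (49 entries) they were 0 and 0 in all 3 comparisons. With a level of 1 RPM, 10 of 126 were lower on day 1 (7.94%, beside 6.10% of the 82). On day 2, 8 of 127 were higher (6.3%) and 5 lower (3.94%). From day 1 to day 2, 5 of 124 were higher (4.03%) and 3 lower (2.42%). Requiring the counting interval to lie beyond 2-fold left 2 and 0, then 1 and 0, then 0 and 0. At 1.5-fold they were 7 and 18, then 6 and 5, then 12 and 2. Scaled to all listed miRNA reads, 2 were higher on day 1 and 3 from day 1 to day 2. From day 1 to day 2, 0 were higher under median-ratio scaling, with a pseudocount of 1, or scaled to 1 entry per set of shared reads. With entries that share most reads counted once, 3 of 46 were lower on day 1. Counting shared reads once and scaling to 1 entry per set were chosen after seeing the data. The median log2 ratio of all 82 entries on day 1 was -0.08, and -0.21, 0.06 and -0.03 under the 3 other scalings; on day 2 it was 0.02, and -0.08, 0.06 and 0.06. Of 76 ratios of named entries, 60 kept their direction and their side of 2-fold under every alternative scaling and the pseudocount. No paired analysis was possible because each low-phosphate time point holds 1 library.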

Other observations

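Below the level of 10 RPM, 82 entries had a root value, and a few of them were past 2-fold. Of the miR169 stars, of a family against NF-YA transcripts, 2 were at least 2-fold higher on day 2. Beside them, 6.3% of all 127 entries of at least 1 RPM were, a share that includes these 2. miR169k* stood at 2.70, 5.28 and 8.44 RPM on days 0, 1 and 2, 3.13-fold above day 0 on day 2 (2.23 to 4.46). On days 4 and 8 it stood at 9.90 and 15.1 RPM. miR169j* stood at 3.56, 5.19 and 7.17 RPM, 2.02-fold above day 0 on day 2 (1.48 to 2.78). It then stood at 6.86 RPM on day 4 and at 0.840 RPM on day 8, below day 0. The other stars of the family below the level were not past 2-fold on day 2. miR169a* and miR169b* stood at 5.83, 6.22 and 6.20 RPM, miR169r* at 2.21, 2.29 and 3.07 RPM and miR169m* at 3.13, 1.92 and 2.34 RPM, and miR169n* had no day 2 value. The copper entry miR397a stood at 4.11, 1.96 and 3.37 RPM, a ratio of 0.478 (0.317 to 0.713) on day 1 and 0.819 (0.577 to 1.16) on day 2. miR528a* had 17, 0 and 10 reads, 7.44-fold lower on day 1 with its 0 reads set to the floor of 3 reads. The counting interval of that ratio was 0 to 0.185. miR167g*, with 4 reads on day 0 and 36 on day 1, had a ratio of 6.86 (2.46 to 26.5) and no day 2 value. miR162, a guide against DICER-LIKE1 transcripts, stood at 5.28, 2.90 and 3.56 RPM (86, 62 and 73 reads), a ratio of 0.549 (0.390 to 0.770) on day 1 and 0.675 (0.487 to 0.933) on day 2. These entries were chosen after their values were seen, and no cause was tested.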
